A study of Homo sapiens with 10 samples.

Results

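Enzymes that remove methyl groups from histones, enzymes that add acetyl groups to them, and the histone methyltransferases outside the H3K9 and Polycomb families were followed in Panc1 cells after forced expression of KLF11 or of a KLF11 mutant. A gene was a member if its symbol is KDM, KMT, KAT, SETD or PRDM followed by a number and an optional letter, or is EP300, CREBBP, NSD1, NSD2, NSD3, DOT1L, ASH1L or RBBP5. By this rule 63 genes were measured, each through its brightest single-symbol transcript cluster, out of 20961 clusters with a gene symbol. They comprise 18 demethylases, 9 acetyltransferases, 22 genes of the methyltransferase group and 14 PRDM genes. ASH1L, KDM4E and KDM4F had no single-symbol cluster and were not analysed here, and KAT14 shares its only cluster with PET117. The rule picks genes by name and function, and measured values enter only in the choice of each gene's brightest cluster.

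Panc1 is an established pancreatic carcinoma line. Cells were transduced for 48 hours with an adenovirus carrying wild type KLF11, the point mutant A347S, the deletion mutant Δ486, the EAPP mutant or no insert (empty vector, EV), each at a multiplicity of infection of 150. KLF11 is a zinc finger transcription factor that binds GC-rich promoter sites. The mutants were built so that A347S no longer couples to WD40 proteins, Δ486 to HP1 and its partner histone methyltransferases, and EAPP to the Sin3 and histone deacetylase system. The 4 KLF11 proteins carry an epitope tag, and all were expressed in cells that keep their own KLF11 gene, so that each construct adds to the endogenous protein. There were 10 arrays, 2 for each of the 5 groups. The titles call the arrays biological replicates while the protocol describes technical duplicates of RNA pooled from triplicate cultures, so the p-values may measure technical spread only.

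Across all clusters, the 2 arrays of a group correlated at 0.996 to 0.997, and the array medians lay between 6.81 and 6.87 on the log2 scale. The KLF11 cluster read 8.82 and 8.85 in wild type KLF11 cells, 8.85 and 8.88 in A347S cells, 8.72 and 8.83 in Δ486 cells, and 8.78 and 8.68 in EAPP cells, against 8.37 and 7.75 in EV cells. Every construct array was therefore above both EV arrays, and the EV arrays differed from each other. The epithelial keratins KRT8 (12.2 to 12.7) and KRT18 (12.8 to 13.2) were high on all arrays. The epithelial markers EPCAM (8.32 to 8.78), MUC1 (7.83 to 8.17), CLDN4 (6.52 to 7.31), KRT7 (6.28 to 6.52) and CDH1 (4.71 to 5.12) were lower. Of the mesenchymal markers, VIM was also high (12.02 to 12.52), and ZEB1 (7.69 to 8.03), CDH2 (4.84 to 5.26) and FN1 (4.54 to 4.90) were lower. PTPRC had the lowest range of the leukocyte markers, 3.44 to 3.75. The islet hormone GCG stayed between 3.74 and 4.03, and the islet markers CHGA (5.08 to 5.44) and SST (5.54 to 5.96) read higher. Fibroblast markers ran from LUM (3.25 to 3.73) to COL1A1 (7.94 to 8.31). SST and COL1A1 thus read above the epithelial marker CDH1. The ductal keratin KRT19 moved with the constructs: its mean was 9.84 in wild type KLF11 cells, 9.32 in A347S cells, 9.77 in Δ486 cells and 10.4 in EAPP cells, against 10.8 in EV cells. Of the leukocyte markers, CD14 averaged 6.15 in wild type KLF11 cells, 6.36 in A347S cells, 6.35 in Δ486 cells and 6.05 in EAPP cells, against 5.77 in EV cells. The part of these markers in the results below was not tested.

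Histone lysine methylation is written by SET domain methyltransferases (and by DOT1L, which has no SET domain) and erased by flavin-dependent demethylases (KDM1) or by the Jumonji C (JmjC) demethylases. Methylation of H3K4 and H3K36 is found at active genes, and that of H3K9, H3K27 and H4K20 is mostly linked to silencing or compaction. The acetyltransferases p300 and CBP, the GCN5-related KAT2 enzymes and the MYST family neutralise lysine charge and serve as coactivators. PRDM proteins carry a SET-like domain beside zinc fingers, and only some of them have shown methyltransferase activity.

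KLF11 recognises CCCCGC and CCCCAC, and these letters were searched on both strands of RefSeq promoter windows (GRCh38.p14, 250 bases before to 50 after each start). Windows were found for 55 of the 63 members, 84 in all. CCCCGC occurred in 70.2% of the member windows, compared with 41.6% of all 35116 windows, and CCCCAC in 33.3% of both. The member windows were also richer in G and C, with a median of 67.5% compared with 58.7% over all windows. The 250 bases before the start are shown for 5 members whose expression is described below: RBBP5 (chr1:205121979-205122228, minus strand) and KDM4D (chr11:94973459-94973708, plus strand), which rose, and KDM5B (chr1:202808422-202808671, minus strand), KAT2B (chr3:20040196-20040445, plus strand) and KMT2C (chr7:152436004-152436253, minus strand), which fell. Each is written 5′ to 3′ on the strand of its gene, and capitals mark either motif or its reverse complement (GCGGGG for the first motif and GTGGGG for the other).
RBBP5: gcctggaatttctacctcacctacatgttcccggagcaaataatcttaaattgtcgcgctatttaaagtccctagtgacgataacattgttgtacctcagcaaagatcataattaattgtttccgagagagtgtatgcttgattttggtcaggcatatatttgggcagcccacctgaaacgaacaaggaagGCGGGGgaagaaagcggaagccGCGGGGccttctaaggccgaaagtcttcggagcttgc
KDM4D: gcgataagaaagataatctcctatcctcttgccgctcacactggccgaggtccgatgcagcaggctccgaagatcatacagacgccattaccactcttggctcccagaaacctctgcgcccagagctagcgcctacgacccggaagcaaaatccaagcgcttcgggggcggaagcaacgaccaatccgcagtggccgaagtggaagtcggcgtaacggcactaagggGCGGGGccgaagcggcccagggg
KDM5B: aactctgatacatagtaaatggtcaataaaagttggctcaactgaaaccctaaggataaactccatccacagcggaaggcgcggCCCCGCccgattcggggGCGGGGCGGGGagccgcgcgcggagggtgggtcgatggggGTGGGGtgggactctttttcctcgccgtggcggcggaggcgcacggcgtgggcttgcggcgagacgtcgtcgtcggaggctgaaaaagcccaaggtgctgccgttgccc
KAT2B: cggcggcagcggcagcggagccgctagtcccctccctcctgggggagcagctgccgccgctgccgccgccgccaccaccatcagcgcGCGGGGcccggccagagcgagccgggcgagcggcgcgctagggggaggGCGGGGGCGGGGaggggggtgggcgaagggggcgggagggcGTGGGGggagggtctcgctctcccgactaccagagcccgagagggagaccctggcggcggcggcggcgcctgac
KMT2C: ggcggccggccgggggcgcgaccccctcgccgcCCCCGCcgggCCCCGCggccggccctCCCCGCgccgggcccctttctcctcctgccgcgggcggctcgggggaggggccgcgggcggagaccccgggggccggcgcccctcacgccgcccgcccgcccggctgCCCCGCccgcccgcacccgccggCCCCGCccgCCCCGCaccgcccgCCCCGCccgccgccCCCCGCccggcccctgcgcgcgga
The RBBP5 stretch is the least GC-rich of the 5, at 46.8%, and holds 2 CCCCGC matches, 37 and 59 bases before the start. KDM4D has 1 match, 23 bases before the start. KDM5B and KAT2B each have 3 CCCCGC matches and 1 CCCCAC match, and KMT2C, at 92% G and C, has 8 CCCCGC matches. Both risen members and all 3 fallen ones thus hold the motif, which is a description of the letters and no evidence of binding.

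Expression changed in few of these genes with wild type KLF11 and in more of them with A347S and Δ486. A call required a Benjamini-Hochberg adjusted p under 0.05 over all 20961 clusters together with a change of at least 1.5-fold (0.58 on the log2 scale), by limma's moderated test on all 10 arrays. With wild type KLF11, 2 members rose and 1 fell, or 4.76% of the 63, close to the 3.99% called over all clusters (2.21% higher, 1.78% lower). With A347S, 2 rose and 9 fell, 17.5% of the members compared with 8.98% of all clusters (3.63% higher, 5.35% lower). With Δ486, 2 rose and 4 fell, 9.52% of the members compared with 5.61% of all clusters (2.38% higher, 3.23% lower). With EAPP none was called, where 0.00477% of all clusters were. After cyclic loess scaling A347S had 3 rises and 5 falls (12.7% where 8.59% of all clusters were called). KDM5A was added, and KDM3A, KMT2C, KMT5A and SETD5 no longer reached 1.5-fold. Δ486 then had 2 rises and 3 falls (7.94% where 5.35% of all clusters were called), with KDM5B at -0.54. With clusters dimmer than the median left out, wild type KLF11 had 2 calls among the 48 members that remained (4.17% where 6.15% of the clusters kept were called), A347S had 10 (20.8% where 14.8% were), and Δ486 had 5 (10.4% where 9.08% were). No member reached a log2 change of 1.5, which, together with the adjusted p, wild type KLF11 gave at 0.129% of all clusters, A347S at 0.296% and Δ486 at 0.153%. In bulk RNA, a lower level in every cell and fewer cells expressing a gene cannot be told apart.

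The smaller changes leaned downwards. By the adjusted p alone, wild type KLF11 had 4 members higher and 20 lower, where 7.56% of all clusters were higher and 9.75% lower. A347S had 5 higher and 25 lower, where 11.5% of all clusters were higher and 16.9% lower. Δ486 had 4 higher and 24 lower, where 9.07% of all clusters were higher and 13.3% lower. The median log2 change of the 63 members was -0.19 for wild type KLF11, -0.19 for A347S, -0.15 for Δ486 and -0.06 for EAPP, where the median over all clusters was -0.02, 0.01, 0.02 and 0.00. Wild type KLF11 had both arrays below both EV arrays at 41 members and above them at 10, where 32.7% of all clusters were below and 24.9% above. A347S had 42 below and 11 above, where 32.2% of all clusters were below and 31.4% above. Δ486 had 38 below and 10 above, where 29.6% of all clusters were below and 32.1% above. EAPP had 18 below and 9 above, where 21.1% of all clusters were below and 18.2% above. All 4 comparisons use the same pair of EV arrays.

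**Figure D1:**
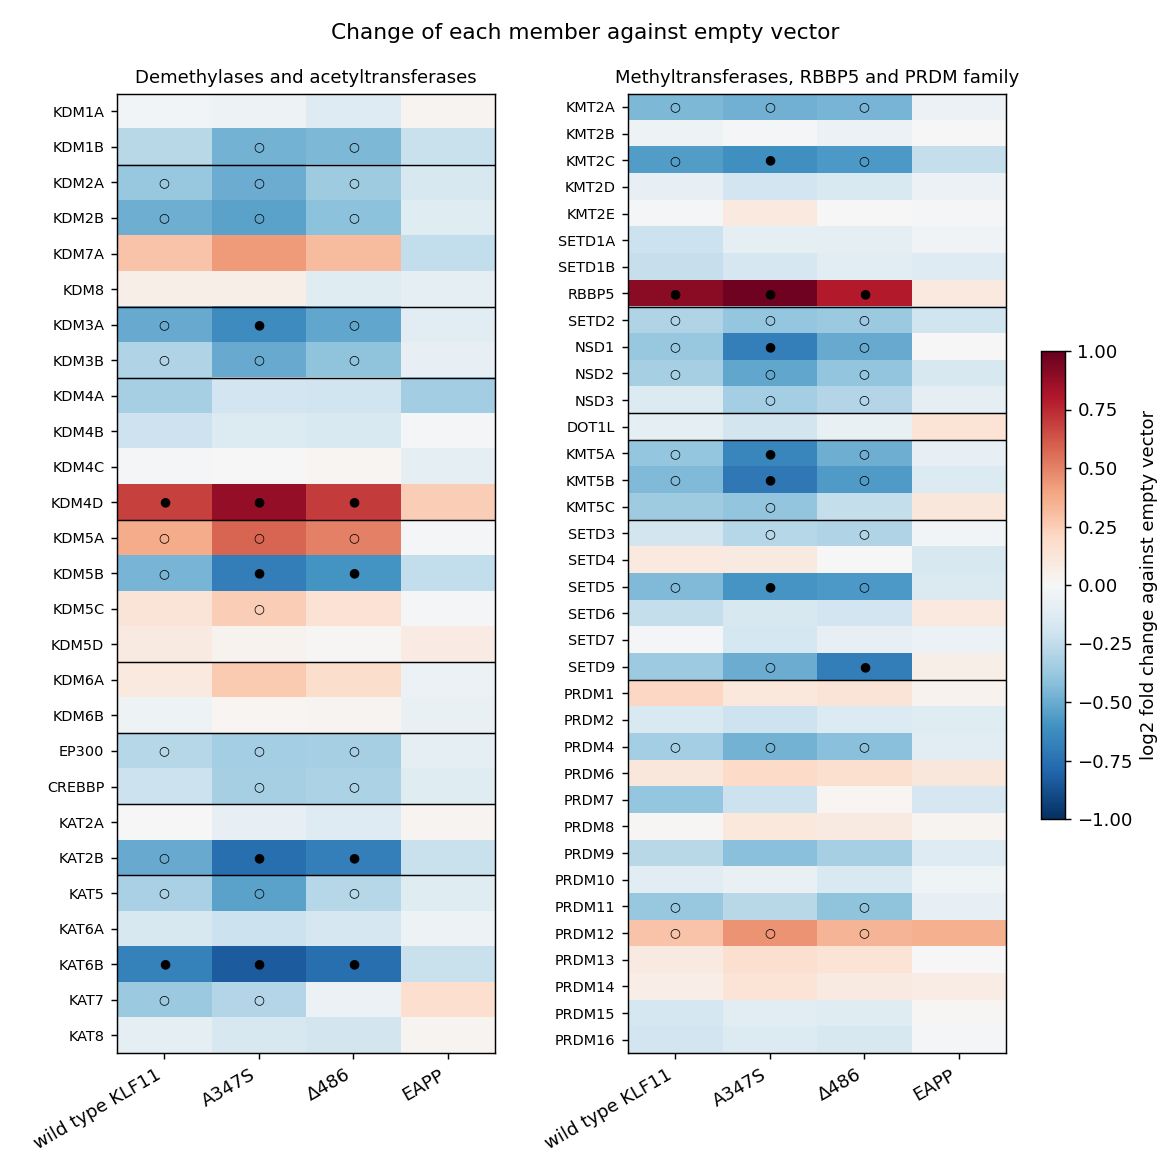
Log2 fold change against EV (colour, from -1 in blue to 1 in red) of the 63 members in rows, with the 4 constructs in columns. Horizontal lines separate enzyme classes, filled dots mark genes called by adjusted p and 1.5-fold, and open circles genes past the adjusted p alone. RBBP5 and KDM4D are red with wild type KLF11, A347S and Δ486, most marked genes are blue, and the EAPP column carries no mark.

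RBBP5 was the strongest change among the members with each of wild type KLF11, A347S and Δ486. RBBP5 is a core subunit of the MLL and SET1 complexes that methylate H3K4, and is itself a WD40 protein. It read 9.46 and 9.39 in wild type KLF11 cells, 9.45 and 9.54 in A347S cells, 9.24 and 9.39 in Δ486 cells, and 8.68 and 8.55 in EAPP cells, against 8.51 and 8.54 in EV cells. All 6 arrays of the first 3 constructs were above both EAPP and both EV arrays. The log2 change against EV was 0.90 for wild type KLF11 (adjusted p = 0.000258), 0.97 for A347S (adjusted p = 5.76e-05) and 0.79 for Δ486 (adjusted p = 0.000296, limma), each with a standard error of 0.0836. With EAPP it was 0.09 (adjusted p = 0.813).

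The enzymes that RBBP5 serves did not follow it. KMT2C (MLL3), which places H3K4 monomethylation at enhancers, read 7.36 and 7.49 in wild type KLF11 cells, 7.47 and 7.27 in A347S cells, 7.37 and 7.45 in Δ486 cells, and 7.85 and 7.64 in EAPP cells, against 7.94 and 8.02 in EV cells. It fell with A347S by 0.62 on the log2 scale (adjusted p = 0.00137, limma), and the changes of -0.56 with wild type KLF11 and -0.57 with Δ486 passed the adjusted p but not the fold. Without A347S replicate 2 the A347S change was -0.51, and without EV replicate 2 it was under 1.5-fold as well. KMT2A (MLL1), which maintains HOX gene expression, passed the adjusted p alone for wild type KLF11 (-0.45), A347S (-0.48) and Δ486 (-0.47). A dimmer cluster of KMT2A gave -0.04, -0.14 and -0.20 and did not pass. KMT2B, KMT2D, SETD1A and SETD1B, with KMT2E placed beside them by its symbol only, passed in no comparison with EV. Their log2 changes lay between -0.23 and 0.10. Of 11 further subunits of these complexes, 1 rose and 1 fell with A347S, 1 rose with Δ486, and none was called with wild type KLF11 or EAPP. Over all clusters 3.63% rose and 5.35% fell with A347S, 2.38% rose with Δ486, and 3.99% were called with wild type KLF11. CXXC1, the CpG-binding subunit of the SET1 complexes, had log2 changes of 0.65 in both the A347S and the Δ486 cells (this and the partner genes described below as further were named after their values were seen). The adaptor WDR82 fell by 0.77 with A347S (adjusted p = 0.000615), while the trimethylation subunit ASH2L was lower there by the adjusted p alone, at -0.46.

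Every H3K36 and H4K20 methyltransferase had a fitted value below EV in wild type KLF11, A347S and Δ486 cells, also after cyclic loess scaling. Of all 20961 clusters, 11434, 10168 and 9538 were below EV in these groups on the deposited scale. NSD1, which dimethylates H3K36, read 7.98 and 8.05 in wild type KLF11 cells, 7.72 and 7.71 in A347S cells, 7.92 and 7.87 in Δ486 cells, and 8.46 and 8.35 in EAPP cells, against 8.44 and 8.35 in EV cells. It fell with A347S by 0.68 (SE 0.0748, adjusted p = 0.000171, limma), and passed the adjusted p alone with wild type KLF11 (-0.38) and Δ486 (-0.50). With EAPP its arrays spanned the same range as those of EV. NSD2, another H3K36 dimethylase, read 7.36 and 7.48 in wild type KLF11 cells, 7.21 and 7.27 in A347S cells, 7.31 and 7.41 in Δ486 cells, and 7.61 and 7.58 in EAPP cells, against 7.78 and 7.73 in EV cells. Its 8 construct arrays lay below both EV arrays, and its changes of -0.33, -0.52 and -0.40 with the first 3 constructs passed the adjusted p alone. The H3K36 class holds SETD2, the trimethylase, and NSD1, NSD2 and NSD3. All 4 were lower by the adjusted p with A347S, as were 16.9% of all clusters. The same held with Δ486 (13.3%), and for 3 of the 4 with wild type KLF11 (9.75%).

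KMT5B, which adds further methyl groups to H4K20, read 8.62 and 8.60 in wild type KLF11 cells, 8.45 and 8.22 in A347S cells, 8.47 and 8.50 in Δ486 cells, and 8.85 and 8.97 in EAPP cells, against 9.09 and 9.01 in EV cells. The fall with A347S was 0.71 (log2 change -0.71, SE 0.0901, adjusted p = 0.000343, limma). KMT5A, the H4K20 monomethylase active in mitosis, read 9.47 and 9.50 in wild type KLF11 cells, 9.32 and 9.12 in A347S cells, 9.43 and 9.34 in Δ486 cells, and 9.72 and 9.86 in EAPP cells, against 9.84 and 9.90 in EV cells. Its fall of 0.65 with A347S (adjusted p = 0.000489) was the reading of the brightest of 3 clusters. The next cluster gave -0.58 and the dimmest 0.03, neither called, and the mean of the 3 was -0.40. Without A347S replicate 2 the brightest cluster gave -0.55, short of 1.5-fold. KMT5C, the close relative of KMT5B, passed the adjusted p alone with A347S, at -0.40.

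DOT1L, the H3K79 methyltransferase, read 7.49 and 7.47 in wild type KLF11 cells, 7.39 on both A347S arrays, 7.60 and 7.42 in Δ486 cells, and 7.68 and 7.74 in EAPP cells, against 7.61 and 7.54 in EV cells. Its change with A347S was -0.18 (adjusted p = 0.121). It passed the adjusted p with none of the constructs. Of the other SET domain proteins, SETD5, whose loss is a cause of intellectual disability and whose own enzymatic activity is disputed, read 8.63 and 8.68 in wild type KLF11 cells, 8.60 and 8.41 in A347S cells, 8.47 and 8.58 in Δ486 cells, and 8.99 and 8.91 in EAPP cells, against 9.06 and 9.14 in EV cells. It fell by 0.59 with A347S (adjusted p = 0.000744), just past the fold threshold, and stood at -0.57 with Δ486 (adjusted p = 0.00154), just short of it. The A347S change was -0.55 without EV replicate 2 and -0.50 without A347S replicate 2, and in both cases the fold was no longer reached.

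SETD9, a SET domain protein of little known function, was the only member called with Δ486 and not with A347S. It read 6.39 and 6.72 in Δ486 cells, 6.67 and 6.84 in A347S cells, 6.93 and 6.83 in wild type KLF11 cells, and 7.27 and 7.33 in EAPP cells, against 7.31 and 7.19 in EV cells. Its change was -0.69 with Δ486 (SE 0.113, adjusted p = 0.00226, limma) and -0.49 with A347S (adjusted p = 0.00894). The Δ486 and A347S arrays overlapped, and without Δ486 replicate 1 the change was -0.52. Of 14 SMYD and PRMT methyltransferases, only PRMT1, the main arginine methyltransferase, was called: its fall was 0.66 for A347S and 0.61 for Δ486 (log2 changes of -0.66 and -0.61). Among all clusters 5.35% fell with A347S and 3.23% with Δ486. PRMT2 passed the adjusted p alone with wild type KLF11 (-0.36), A347S (-0.44) and Δ486 (-0.43).

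Of the 9 acetyltransferases, A347S and Δ486 each had 2 that fell (5.35% and 3.23% of all clusters fell), wild type KLF11 had 1 (1.78%), and none rose with any construct. The fitted values of all 9 were below EV with A347S and with Δ486, except that KAT7 was above EV with Δ486 after cyclic loess scaling. Over all 20961 clusters, 10168 were below EV with A347S and 9538 with Δ486. The median of the 9 was -0.28 for wild type KLF11, -0.33 for A347S, -0.29 for Δ486 and -0.09 for EAPP. KAT6B (MORF), a MYST enzyme that acetylates H3K23, read 6.83 and 6.76 in wild type KLF11 cells, 6.71 and 6.58 in A347S cells, 6.66 and 6.78 in Δ486 cells, and 7.29 and 7.21 in EAPP cells, against 7.40 and 7.54 in EV cells. Its log2 change was -0.68 for wild type KLF11 (adjusted p = 0.00102), -0.83 for A347S (adjusted p = 0.000127) and -0.75 for Δ486 (adjusted p = 0.00041, limma). KAT6B was the only member that fell with all 3 of these constructs. Its close relative KAT6A read -0.16, -0.22 and -0.17 and passed in none of them.

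KAT2B (PCAF), a histone H3K9 acetyltransferase of the SAGA and ATAC coactivator complexes, read 8.26 and 8.25 in wild type KLF11 cells, 8.11 and 7.92 in A347S cells, 8.12 and 8.05 in Δ486 cells, and 8.62 and 8.47 in EAPP cells, against 8.73 and 8.80 in EV cells. It fell in both mutants, at -0.75 with A347S (SE 0.0881, adjusted p = 0.000236, limma) and -0.68 with Δ486 (adjusted p = 0.000713). With wild type KLF11 the change of -0.51 passed the adjusted p alone. Its paralogue KAT2A (GCN5) differed from it: KAT2A read 8.59 and 8.64 in wild type KLF11 cells, 8.53 and 8.52 in A347S cells, 8.46 and 8.50 in Δ486 cells, and 8.58 and 8.70 in EAPP cells, against 8.58 and 8.64 in EV cells, and no change passed the adjusted p.

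In 22 further subunits of SAGA and ATAC, changes ran in both directions. A347S had 4 rises and 4 falls (3.63% of all clusters rose and 5.35% fell). Δ486 had 3 and 3 (2.38% and 3.23%), and wild type KLF11 had 3 rises and 2 falls (2.21% and 1.78%). TAF5L, a WD40 subunit of SAGA, fell in all 3 groups, with log2 changes of -0.69 for wild type KLF11, -1.02 for A347S and -0.83 for Δ486. TAF9B rose in the same groups, by 0.70, 0.87 and 0.72. In the A347S cells further rises were SUPT7L (0.88), TAF12 (0.82) and MBIP (0.61), and further falls ATXN7L3 (-1.12), TAF6L (-0.74) and TADA3 (-0.67), the adaptor of both complexes.

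p300 and CBP, coactivators that bind the zinc fingers of KLF11, were slightly lower. EP300 read 7.70 and 7.56 in wild type KLF11 cells, 7.60 and 7.55 in A347S cells, 7.52 and 7.65 in Δ486 cells, and 7.79 and 7.85 in EAPP cells, against 7.88 and 7.94 in EV cells. Its changes of -0.28 (adjusted p = 0.0414), -0.34 (adjusted p = 0.0115) and -0.33 (adjusted p = 0.0167, limma) passed the adjusted p alone. CREBBP read 8.55 and 8.68 in wild type KLF11 cells, 8.58 and 8.40 in A347S cells, 8.45 and 8.58 in Δ486 cells, and 8.76 and 8.64 in EAPP cells, against 8.77 and 8.88 in EV cells. It was past the adjusted p with A347S (-0.33) and Δ486 (-0.31), while its -0.21 with wild type KLF11 had an adjusted p of 0.172. All construct arrays of EP300 and of CREBBP, EAPP included, lay below both EV arrays.

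Of the other MYST enzymes, KAT5 (TIP60), which acts in DNA repair, read 8.79 and 8.69 in wild type KLF11 cells, 8.62 and 8.43 in A347S cells, 8.78 and 8.77 in Δ486 cells, and 8.89 and 8.99 in EAPP cells, against 9.09 and 9.03 in EV cells. Its changes of -0.32, -0.54 and -0.29 with the first 3 constructs passed the adjusted p alone. KAT7 (HBO1), linked to replication origins, did so with wild type KLF11 (-0.37) and A347S (-0.29) but not with Δ486 (-0.06). Among 30 measured partners of the MYST enzymes, 1 rose and 5 fell with A347S (3.63% of all clusters rose and 5.35% fell). Wild type KLF11 and Δ486 each had no rise and 1 fall (1.78% and 3.23% of all clusters fell). The reader ING5 fell with all 3 constructs, with log2 changes of -0.65 for wild type KLF11, -0.90 for A347S and -0.75 for Δ486. The actin-related ACTL6A fell with A347S (-0.68) and passed the adjusted p alone with wild type KLF11 (-0.47) and Δ486 (-0.57). Further falls with A347S were JADE2 (-0.71), MSL1 (-0.63) and PHF20 (-0.59), and BRD8 rose by 0.71. Of 8 acetyltransferases named otherwise, A347S had 2 falls (5.35% of all clusters fell), and wild type KLF11 (1.78%) and Δ486 (3.23%) had 1 each. The nuclear receptor coactivator NCOA2 fell with each of them (-0.60, -1.07 and -0.73), and its relative NCOA1 with A347S (-0.64).

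**Figure D2:**
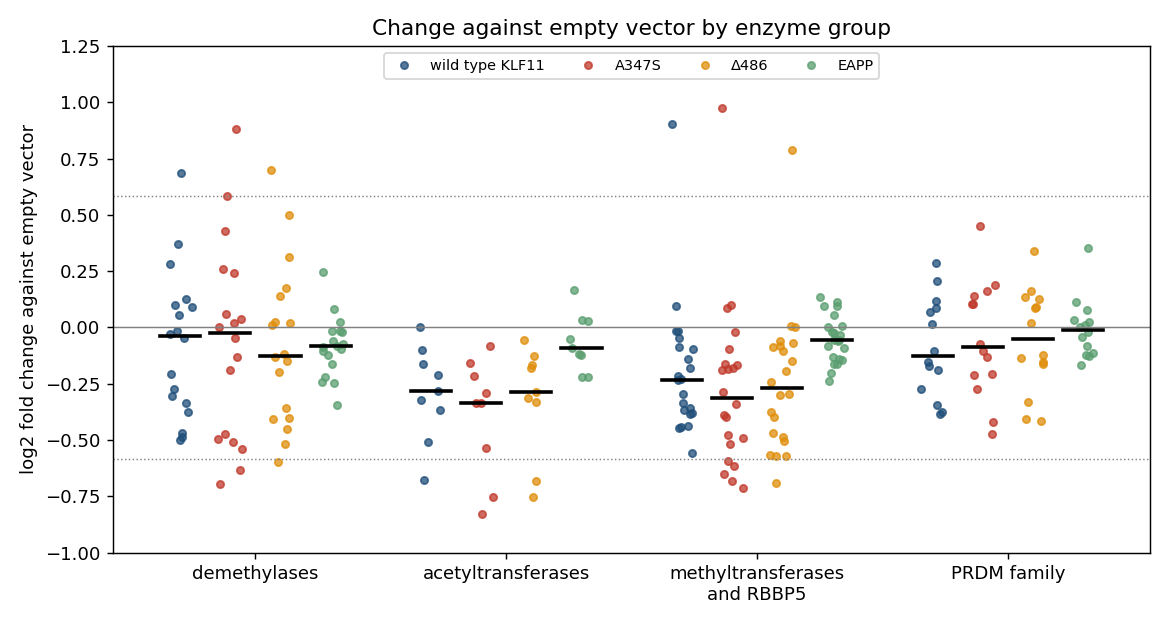
Log2 fold change against EV of every member by enzyme group, with the constructs in the order wild type KLF11, A347S, Δ486 and EAPP. Each point is a gene, black bars are medians and dotted lines mark 1.5-fold. With A347S all 9 acetyltransferases and 19 of 22 genes of the methyltransferase group are below 0, while 9 of 18 demethylases are above 0 (9, 18 and 8 after cyclic loess scaling). Of all 20961 clusters, 10168 are below 0 with A347S and 10793 above. The EAPP points stay between -0.35 and 0.35.

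Among the 18 demethylases KDM4D rose with 3 constructs, KDM5B fell with A347S and Δ486, and KDM3A fell with A347S. Of all clusters, 2.21% rose and 1.78% fell with wild type KLF11, 3.63% and 5.35% with A347S, and 2.38% and 3.23% with Δ486. By fitted values wild type KLF11 had 7 above and 11 below EV (8 and 10 after cyclic loess scaling), A347S had 9 and 9 (8 and 10), Δ486 had 8 and 10 (6 and 12), and EAPP had 3 and 15 (3 and 15), though with EAPP none passed the adjusted p. The split over all clusters was 9527 above and 11434 below for wild type KLF11, 10793 and 10168 for A347S, 11423 and 9538 for Δ486, and 10570 and 10391 for EAPP. The median of the 18 was -0.04 for wild type KLF11, -0.02 for A347S, -0.13 for Δ486 and -0.08 for EAPP. KDM4D, a testis-rich JmjC demethylase of H3K9, was among the dimmer members. It read 6.29 and 6.40 in wild type KLF11 cells, 6.47 and 6.62 in A347S cells, 6.40 and 6.33 in Δ486 cells, and 5.77 and 6.05 in EAPP cells, against 5.76 and 5.57 in EV cells. The rise was 0.68 for wild type KLF11 (adjusted p = 0.00314), 0.88 for A347S (adjusted p = 0.00033) and 0.70 for Δ486 (adjusted p = 0.0019, limma), each with a standard error of 0.11. KDM4A, KDM4B and KDM4C, broadly expressed relatives that also act on H3K36, passed in no comparison with EV. KDM4A read 9.04 and 8.89 in wild type KLF11 cells, 9.12 and 9.10 in A347S cells, 9.03 and 9.17 in Δ486 cells, and 9.12 and 8.79 in EAPP cells, against 9.26 and 9.34 in EV cells. All 8 construct arrays were below the EV arrays, and with EAPP, where it was the lowest member, the change was -0.35 (adjusted p = 0.412).

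The H3K4 demethylases of the KDM5 family diverged. KDM5B (JARID1B), often raised in carcinomas, read 9.30 and 9.31 in wild type KLF11 cells, 9.18 and 8.98 in A347S cells, 9.21 and 9.14 in Δ486 cells, and 9.53 on both EAPP arrays, against 9.80 and 9.75 in EV cells. It fell with A347S by 0.69 (SE 0.0821, adjusted p = 0.000246, limma) and with Δ486 by 0.60 (adjusted p = 0.00099), and passed the adjusted p alone with wild type KLF11 (-0.47). Its 8 construct arrays were all below the EV arrays. The Δ486 call sat close to the threshold, at -0.56 without Δ486 replicate 2, and missed 1.5-fold without EV replicate 1 as well.

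KDM5A (JARID1A, RBP2), a partner of the retinoblastoma protein, went the other way. It read 8.33 and 8.30 in wild type KLF11 cells, 8.55 and 8.51 in A347S cells, 8.33 and 8.56 in Δ486 cells, and 8.08 and 7.78 in EAPP cells, against 7.92 and 7.96 in EV cells. Its changes of 0.37, 0.58 and 0.50 passed the adjusted p (0.0431, 0.00284 and 0.00927, limma), and with A347S it missed 1.5-fold by a margin in the fourth decimal. KDM5C was higher by the adjusted p alone with A347S, at 0.24. KDM5A and KDM5B thus changed in opposite directions by the adjusted p on the same arrays.

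The H3K9 demethylases KDM3A and KDM3B were both lower. KDM3A (JMJD1A), a hypoxia-inducible coactivator, read 7.90 and 7.83 in wild type KLF11 cells, 7.69 and 7.78 in A347S cells, 7.86 and 7.84 in Δ486 cells, and 8.41 and 8.12 in EAPP cells, against 8.41 and 8.32 in EV cells. It fell with A347S by 0.63 (adjusted p = 0.00102, limma), with 1.5-fold just missed without A347S replicate 1 (-0.58), and passed the adjusted p alone for wild type KLF11 (-0.50) and Δ486 (-0.52). KDM3B read 8.93 and 8.97 in wild type KLF11 cells, 8.78 and 8.71 in A347S cells, 8.86 and 8.84 in Δ486 cells, and 9.24 and 9.11 in EAPP cells, against 9.30 and 9.21 in EV cells. It passed the adjusted p alone with the first 3 constructs, at -0.30, -0.51 and -0.40, and its EAPP and EV arrays overlapped.

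KDM2A and KDM2B, H3K36 demethylases with a CpG-binding CXXC domain, were lower in the same 3 groups by the adjusted p alone, with changes between -0.36 and -0.54. KDM2A read 8.40 and 8.47 in wild type KLF11 cells, 8.37 and 8.27 in A347S cells, 8.51 and 8.41 in Δ486 cells, and 8.65 on both EAPP arrays, against 8.94 and 8.69 in EV cells. KDM2B read 7.41 and 7.59 in wild type KLF11 cells, 7.50 and 7.40 in A347S cells, 7.67 and 7.49 in Δ486 cells, and 7.85 and 7.88 in EAPP cells, against 8.07 and 7.90 in EV cells. For both genes every construct array was below the EV arrays.

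The brightest member was KDM1A (LSD1), the flavin-dependent H3K4 demethylase of the CoREST complex, with a mean of 10.53 over all arrays. It read 10.55 and 10.53 in wild type KLF11 cells, 10.54 and 10.49 in A347S cells, 10.37 and 10.49 in Δ486 cells, and 10.59 on both EAPP arrays, against 10.56 and 10.57 in EV cells, and passed in no comparison. Of 9 measured CoREST partners, none rose, 2 fell with A347S (5.35% of all clusters fell), 1 with Δ486 (3.23%) and none with wild type KLF11 (1.78%). The deacetylase HDAC1 fell with A347S (-0.70) and Δ486 (-0.59), and the zinc finger protein ZNF217 with A347S (-0.67). KDM1B (LSD2), the relative of KDM1A, read 6.85 and 6.94 in wild type KLF11 cells, 6.82 and 6.57 in A347S cells, 6.89 and 6.55 in Δ486 cells, and 6.99 and 6.91 in EAPP cells, against 7.14 and 7.20 in EV cells. Its 8 construct arrays were below both EV arrays, and the changes with A347S (-0.47) and Δ486 (-0.45) passed the adjusted p alone.

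KDM6A and KDM6B, the H3K27 demethylases, had changes between -0.07 and 0.26, none past the adjusted p. KDM6A read 7.94 and 7.98 in wild type KLF11 cells, 8.12 and 8.13 in A347S cells, 7.89 and 8.19 in Δ486 cells, and 7.98 and 7.63 in EAPP cells, against 7.80 and 7.93 in EV cells. KDM6B read 6.62 and 6.89 in wild type KLF11 cells, 6.83 and 6.82 in A347S cells, 6.99 and 6.67 in Δ486 cells, and 6.62 and 6.84 in EAPP cells, against 6.89 and 6.72 in EV cells. The KDM6B arrays of every construct overlapped the EV range. Of 14 JmjC proteins with other names, 2 fell with each of wild type KLF11 (1.78% of all clusters fell), A347S (5.35%) and Δ486 (3.23%). They were RIOX2, a nucleolar hydroxylase (-0.75, -1.04 and -0.82), and JARID2, an accessory subunit of a Polycomb complex (-0.79, -0.96 and -0.69). A further gene of this list, the H3K9 demethylase PHF8, rose by 0.66 with A347S.

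The PRDM family held no call. Over all clusters 3.99% were called with wild type KLF11, 8.98% with A347S, 5.61% with Δ486 and 0.00477% with EAPP. PRDM12, a regulator of sensory neurons, read 7.19 and 7.30 in wild type KLF11 cells, 7.40 and 7.42 in A347S cells, 7.38 and 7.22 in Δ486 cells, and 7.26 and 7.37 in EAPP cells, against 6.95 and 6.97 in EV cells. Its changes of 0.28, 0.45 and 0.34 with the first 3 constructs passed the adjusted p, and the 0.35 with EAPP had an adjusted p of 0.279. All 8 construct arrays were above the EV arrays. PRDM4 read 7.77 and 7.82 in wild type KLF11 cells, 7.74 and 7.59 in A347S cells, 7.69 and 7.75 in Δ486 cells, and 8.08 and 7.97 in EAPP cells, against 8.08 and 8.19 in EV cells. It passed the adjusted p alone with wild type KLF11 (-0.34), A347S (-0.47) and Δ486 (-0.42), and PRDM11 with wild type KLF11 (-0.38) and Δ486 (-0.41). The remaining 11 genes passed in none, and the near-identical copies PRDM7 and PRDM9 cannot be read separately with certainty.

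**Figure D3:**
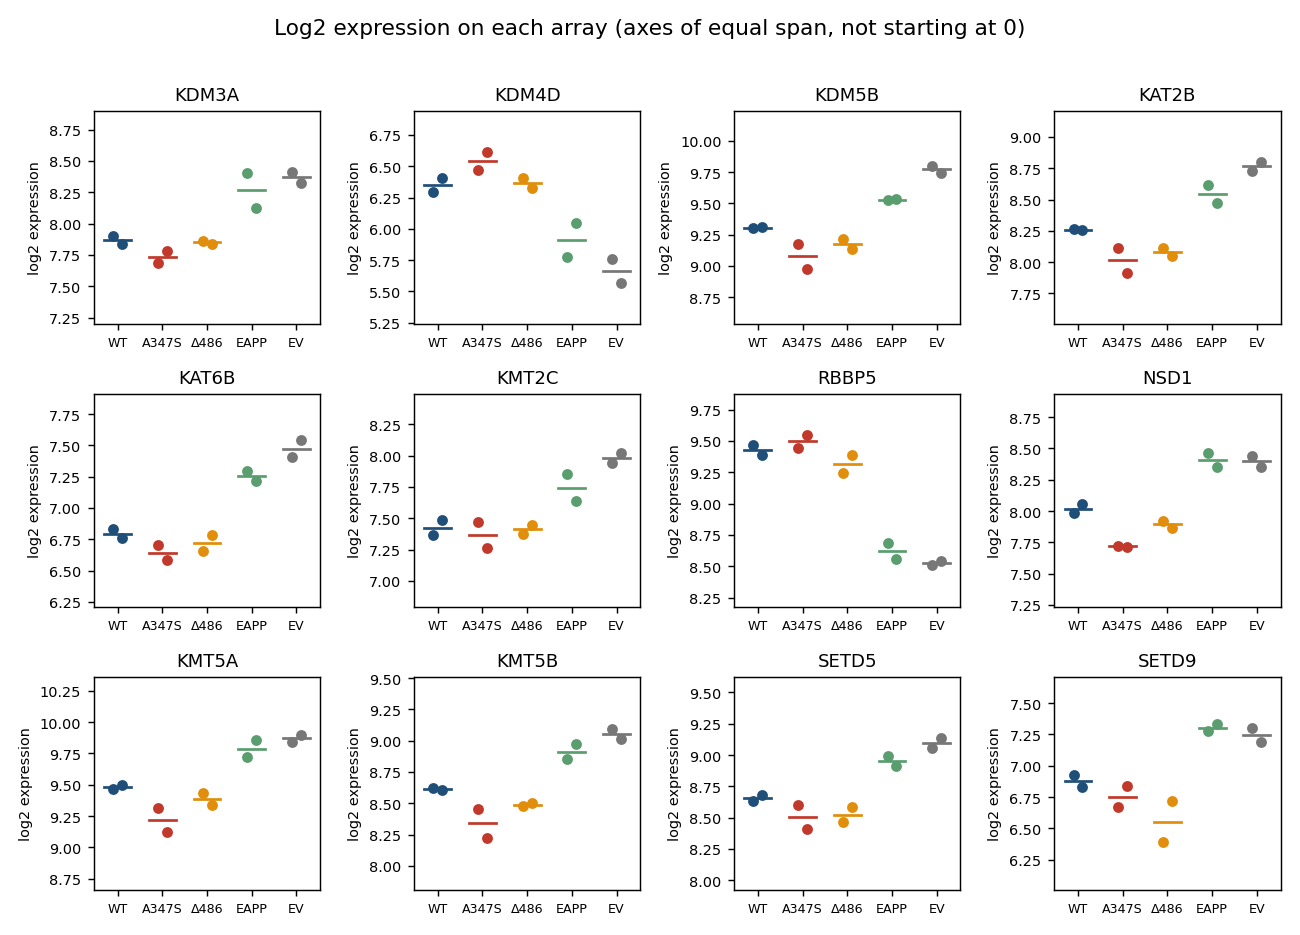
Log2 expression on each array of the 12 members called against EV with at least 1 construct, with wild type KLF11 (WT), A347S, Δ486, EAPP and EV from left to right. Points are the 2 arrays of a group, lines their mean, and every axis spans 1.7 log2 units without starting at 0. RBBP5 and KDM4D sit above EV with WT, A347S and Δ486, the other 10 genes sit below it, and the EAPP points are nearest to EV.

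EAPP was compared directly with the other constructs, which tests the difference itself. Against wild type KLF11, EAPP gave 1 member called, RBBP5, at -0.81 with EAPP (SE 0.0836, adjusted p = 0.000747, limma), 1.59% of the members where 2.51% of all clusters were called. With each array left out in turn, the RBBP5 difference lay between -0.87 and -0.74. By the adjusted p alone, 8 members were higher and 2 lower with EAPP than with wild type KLF11, where 4.89% of all clusters were higher and 5.86% lower. KDM4D was lower, at -0.44. The 8 higher members were KAT6B (0.46), KDM3A, KDM2B, KMT2A, NSD1, SETD9, KMT5C and KAT7, with differences between 0.36 and 0.54.

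Against EAPP, A347S had 4 members higher and 2 lower, 9.52% of the members where 6.01% of all clusters were called. RBBP5 (0.88), KDM7A (0.67), KDM4D (0.63) and KDM5A (0.60) were higher with A347S, and NSD1 (-0.69) and KAT6B (-0.61) lower. KDM7A, a demethylase of H3K9 and H3K27, read 6.79 and 6.71 in wild type KLF11 cells, 6.96 and 6.82 in A347S cells, 6.78 and 6.77 in Δ486 cells, and 6.49 and 5.94 in EAPP cells, against 6.37 and 6.56 in EV cells. The lower EAPP array carries much of the difference, which was 0.40 without it. Without A347S replicate 1 the difference of 0.60 no longer passed the adjusted p (0.0715). KDM5A missed 1.5-fold without EAPP replicate 2 (0.45) and without A347S replicate 1 (0.58). KDM4D (0.50) and KAT6B (-0.55) missed it without EAPP replicate 1 and without A347S replicate 2. By the adjusted p alone 5 members were higher and 22 lower with A347S, where 9.74% of all clusters were higher and 13.6% lower. After cyclic loess scaling, 62.2% of all clusters called between A347S and EAPP were higher with A347S, as opposed to 51% on the deposited scale, and KAT6B was no longer called (-0.57).

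Against EAPP, Δ486 had 1 member higher, RBBP5 at 0.69 (adjusted p = 0.000995), and 1 lower, SETD9 at -0.75 (adjusted p = 0.0027), 3.17% of the members where 3.26% of all clusters were called. By the adjusted p alone 4 members were higher and 13 lower with Δ486, where 6.73% of all clusters were higher and 8.29% lower. Without Δ486 replicate 1 the SETD9 difference was -0.58, and the RBBP5 difference lay between 0.62 and 0.77 with each array left out in turn. RBBP5 was thus the only member called between EAPP and each of wild type KLF11, A347S and Δ486.

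**Figure D4:**
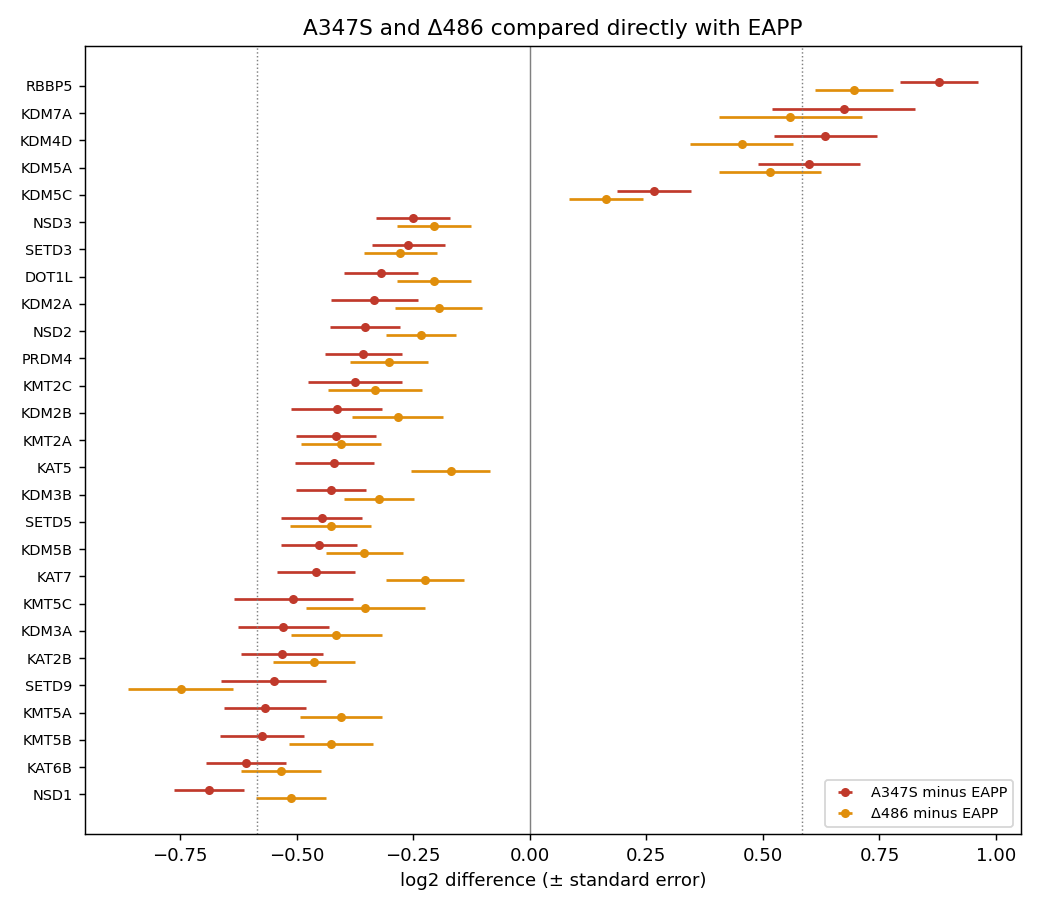
Log2 difference with its standard error between A347S and EAPP (red) and between Δ486 and EAPP (orange) for the 27 members past the adjusted p between A347S and EAPP. Dotted lines mark 1.5-fold. RBBP5, KDM7A, KDM4D, KDM5A and KDM5C lie above 0 and 22 members below it.

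A347S and Δ486 were not told apart from wild type KLF11 at any member. By limma's adjusted p none of the 63 members, and none of the 20961 clusters, differed between A347S and wild type KLF11 or between Δ486 and wild type KLF11 (0% called in both). By an unadjusted p under 0.05, 9 members differed between A347S and wild type KLF11, all lower with A347S, where 8.32% of all clusters were lower. The largest of these was NSD1, at -0.30 (SE 0.0748, adjusted p = 0.185). Between Δ486 and wild type KLF11 there were 3, where 10.5% of all clusters passed, namely KAT7 (0.31), PRDM7 (0.41) and SETD9 (-0.33, adjusted p = 0.405). The higher count with A347S against EV is therefore no shown difference from wild type KLF11, nor is it shown that the constructs act alike. With EAPP against EV, 7 members had an unadjusted p under 0.05, 11.1% of the 63 where 8.73% of all clusters did, and none of these reached 1.5-fold.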

How the data were processed

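The authors hybridised RNA of Panc1 cells to Affymetrix Human Gene 1.0 ST arrays, then used Robust Multiarray Analysis for background correction and normalization. The deposited values are log2 expression per transcript cluster, and the submitters' processing notes name Partek 6.6. No source used here states which genome build annotated the arrays. Of 28869 clusters, 7908 without a gene symbol were left out and 20961 were tested.

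Group means over all 10 arrays were fitted with limma 3.58.1 in R 4.3.3 (5 residual and 4.54 prior degrees of freedom), with Benjamini-Hochberg adjustment over all tested clusters. Figures and promoter counts used Python 3.11.15. Median standard error was 0.0954. Only 2 arrays per group limit the precision. The code was tested on simulated data.

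The members and lists were chosen with earlier results of these data known. All members may be named. Values on each array are given for called members, the 2 with the smallest p in each class, and EP300, CREBBP, KDM3A, SETD5, RBBP5 and KAT2B. The 2 of smallest p are named from each list of partner genes. Alternatives covered thresholds, moderation, the methods' t-test without its Bayes correction, scaling, dim or unnamed clusters, the cluster per gene, the replicate block and each array left out.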

Additional observations from a re-analysis of the deposited data

Results flagged for a closer look

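Members whose response differed between constructs in the direct test were singled out, 9 differences in all (limma, adjusted over all clusters). RBBP5 was lower with EAPP than with wild type KLF11 (-0.81, adjusted p = 0.000747). It was higher with A347S than with EAPP (0.88, adjusted p = 0.000158) and with Δ486 than with EAPP (0.69, adjusted p = 0.000995). Between A347S and EAPP, KDM7A (0.67, adjusted p = 0.0107), KDM4D (0.63, adjusted p = 0.00284) and KDM5A (0.60, adjusted p = 0.00352) were higher with A347S. KAT6B (-0.61, adjusted p = 0.000983) and NSD1 (-0.69, adjusted p = 0.000291) were lower with A347S. SETD9 was lower with Δ486 than with EAPP (-0.75, adjusted p = 0.0027). The 3 RBBP5 differences kept the call without each array in turn, as did NSD1, whereas KDM7A, KDM4D, KDM5A, KAT6B and SETD9 each lost it without at least 1 array.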

How the results depend on the processing

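With no fold threshold, the members past the adjusted p numbered 24 (wild type KLF11), 30 (A347S) and 28 (Δ486) against EV, 10 for EAPP against wild type KLF11, 27 for A347S against EAPP and 17 for Δ486 against EAPP. At a log2 change of 1.5 each of these 6 counts was 0, where at most 0.296% of all clusters passed. The methods' t-test, run here without their Bayes correction on 2 arrays against 2, called 0 members and 0 of all clusters after Benjamini-Hochberg adjustment in every comparison, so its 0 says nothing of the members. Unadjusted, it gave 3 members for A347S against EAPP (5.21% of all clusters). With each array left out in turn, 3 to 4 members were called for wild type KLF11, 9 to 12 for A347S, 6 to 7 for Δ486 and 0 to 0 for EAPP against EV, 1 to 3 for EAPP against wild type KLF11 (2 without wild type KLF11 replicate 2, 3 without EAPP replicate 1), 5 to 7 for A347S against EAPP and 2 to 4 for Δ486 against EAPP. A fit without an array leaves 1 array in its group, and the calls over all clusters shifted in these fits as well. The ranges therefore say little of the members alone. After cyclic loess scaling, A347S had 3 members higher, KDM5A added, and 5 lower, with KDM3A, KMT2C, KMT5A and SETD5 lost, and Δ486 had 2 higher and 3 lower. Of all clusters, 8.59% were then called with A347S and 5.35% with Δ486. The replicate number as a block left the member calls as they were (3, 11, 6 and 0 against EV). The replicate numbers did not pair the arrays in a common direction: the 10 correlations of deviations ran from -0.35 to 0.15, and 1 was over 0.1. A batch that crosses the numbers was not tested. Over all clusters, EAPP against EV gave 1 call, 38 at an unadjusted p with 1.5-fold and 21 with a variance trend and robust moderation, A347S against wild type KLF11 gave 0, 38 and 23, and Δ486 against wild type KLF11 gave 0, 46 and 6. With no fold threshold the calls over all clusters against EV numbered 3628 (wild type KLF11), 5946 (A347S) and 4692 (Δ486), as opposed to 837, 1882 and 1176. The cause of these shifts, beyond the thresholds themselves, was not tested. Of the values of single members under the alternatives, 2782 kept direction and side of the threshold, 88 lost and 62 gained the call, and 21 changed sign, none of these called on either side (KDM1A with A347S was 0.00 after cyclic loess scaling, and KDM6B with wild type KLF11 was 0.09 without wild type KLF11 replicate 1). No spot-level background was used here, so that dim members such as KDM4D carry no detection limit.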
